A study of Mus musculus with 12 samples.

Results

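Gonadal white fat of male mice was compared between arrays labelled as lacking Gadd45a and arrays labelled as having it, at equal Ing1 status. All 12 of the 12 arrays of the study take part. The 6 arrays labelled Gadd45a-KO (Gadd45a deficient) or DKO (Gadd45a-/-;Ing1-/-) stand against the 6 labelled WT (wildtype) or Ing1-KO (Ing1 deficient). The value of a gene is its log2 main effect, the mean log2 signal of the first 6 arrays less that of the other 6, fitted with Ing1 status as a second term. It is also the mean of 2 comparisons that share no array, Gadd45a-KO against WT, where Ing1 is present, and DKO against Ing1-KO, where Ing1 is absent. All mice were C57BL/6N males aged 59 to 67 days from a cross of the single mutant lines. For each genotype 9 animals were taken, and the RNA of 3 was mixed for each of 3 arrays, so that the spread between arrays is that of pools and not of single mice.

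Gadd45a encodes a small nuclear protein that is induced by stress and DNA damage. It binds partners rather than acting as an enzyme: it activates a kinase upstream of p38 and JNK, holds back cell cycle kinases, and helps recruit DNA repair factors to sites of active DNA demethylation. Ing1 encodes a chromatin reader of trimethylated lysine 4 of histone H3 that is known to bring Gadd45a to such sites. White fat consists by mass mainly of lipid-filled adipocytes, with progenitors, vessels, mesothelium, macrophages and lymphocytes between them, and in bulk tissue fewer cells of a type and less RNA per cell cannot be told apart.

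The arrays carried the marks of white fat. All 24 white adipocyte markers were measured on every array, and the adipokine gene Adipoq had a mean log2 signal between 16.58 ± 0.24 in Gadd45a-KO and 17.37 ± 0.43 in DKO (SD, n = 3 arrays). Of 18 epididymis and testis markers 6 were among the genes tested. Skeletal muscle transcripts stood high on 3 arrays, all of slide 1, with a mean over the list that lay 3.32 (Ing1-KO replicate 1), 2.07 (DKO replicate 1) and 0.99 (Gadd45a-KO replicate 1) log2 units above the mean of 12 arrays. WT replicate 2 was the dimmest array, and the results that rest on it are given with and without it. The brightest Ing1 probe lay between 12.37 and 12.78 where Ing1 is present and between 9.13 and 9.60 where it is absent.

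No gene passed the test of the Gadd45a label. Of 31453 genes or unnamed probes tested, limma called 0 at an adjusted p under 0.05. At an unadjusted p under 0.05 there were 283, or 0.9%, where that level alone would give 1573. Of these, 161 (0.512%) were higher and 122 (0.388%) lower in arrays labelled as lacking Gadd45a. The median size of the main effect was 0.07 log2 units against a median standard error of 0.15, and 94 features (0.299%) differed by 2-fold or more. In the same fit the Ing1 main effect called 4356 features (13.8%), of which 1891 (6.01%) were higher and 2465 (7.84%) lower without Ing1. Blocking on array column brought that count to 25, and it was 5 without the 3 arrays highest in muscle transcripts and between 1663 and 7854 on leaving out 1 array.

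Without overlap between the 6 arrays and the other 6 stood 20 features (0.0636%). They are 7 named genes, 8 probes for intergenic regions and 5 clones or predicted genes, 10 of them (0.0318%) higher and 10 (0.0318%) lower where Gadd45a is labelled as lost. A_30_P01022870, A_30_P01033259 and A_52_P747383 were above background on 1 side only and entered the tests through it, so that their lack of overlap supports nothing. Kcnu1, A_55_P2144701 and A_30_P01027046 were above background on only 1 array of the side where they are low. The count and its split include these features. The first of the 20 by p, and the first over all features tested, was the Gadd45a probe itself, A_51_P296608. Its normalized log2 signal was 9.33, 9.80 and 9.41 in WT and 9.30, 9.25 and 9.06 in Ing1-KO, against 10.27, 10.19 and 10.05 in Gadd45a-KO and 10.60, 10.62 and 10.61 in DKO. All 6 arrays labelled as lacking Gadd45a thus lay above all 6 labelled as having it. The main effect was 1.03 ± 0.14 (SE), with a limma adjusted p of 0.0607, which misses the threshold. It was 0.66 where Ing1 is present and 1.41 where it is absent, and within the slides it was 1.12, 0.88 and 1.10.

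The probe was brighter where the labels say that the gene was lost. The files do not tell where the probe lies relative to the deleted part of Gadd45a, so that its level does not check the labels. Every direction given here holds only if those labels are right. The call depended on the model. With 4 genotype means in place of the additive fit the probe passed with an adjusted p of 0.00413, with no filter on dim probes with 0.0394, and without WT replicate 2 with 0.0119.

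The DNA just upstream of both genes that lead the main effect is given so that a reader can place them: the 250 bases before the start of Gadd45a (chr6:67037408-67037657, minus strand) and of Cd207 (chr6:83677858-83678107, minus strand), from RefSeq on GRCm38.p6. Capitals mark a match to the C/EBP core motif, searched on both strands as TTGCNNAA and TTNNGCAA, which are each other's reverse complement.
Gadd45a: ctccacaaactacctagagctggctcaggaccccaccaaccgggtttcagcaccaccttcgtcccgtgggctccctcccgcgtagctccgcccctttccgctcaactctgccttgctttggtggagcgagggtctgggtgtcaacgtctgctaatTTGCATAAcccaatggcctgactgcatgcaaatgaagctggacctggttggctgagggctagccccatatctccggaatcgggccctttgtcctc
Cd207: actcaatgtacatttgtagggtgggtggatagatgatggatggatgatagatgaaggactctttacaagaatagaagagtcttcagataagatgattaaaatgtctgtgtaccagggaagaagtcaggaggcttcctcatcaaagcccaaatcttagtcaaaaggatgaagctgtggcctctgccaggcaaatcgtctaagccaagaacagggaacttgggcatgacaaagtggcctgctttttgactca
One match lies upstream of Gadd45a and none in this window of Cd207. The motif occurs in 9.55% of 27025 promoters of this length and in 8.28% of the 12646 tested genes that have one. Of the genes at an unadjusted p under 0.05 it occurs in 9 of 67 that were higher and 1 of 42 that were lower. A match is a string of letters and says nothing of binding in fat.

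Cd207 had the largest main effect among the 7 named genes that separate the arrays. It encodes langerin, a lectin of Langerhans cells and of some dendritic cells. Its log2 signal was 6.82, 6.59 and 6.82 in WT and 7.10, 6.51 and 6.65 in Ing1-KO, against 7.97, 8.76 and 8.70 in Gadd45a-KO and 7.72, 7.56 and 8.36 in DKO. The lowest array labelled as lacking Gadd45a lay 0.46 above the highest of the others. The main effect was 1.43 ± 0.20 (SE), a 2.70-fold higher signal, with a limma adjusted p of 0.0607, and it passed only with no filter on dim probes, at 0.0394. Within the slides the difference was 0.89, 1.61 and 1.80.

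The list of dendritic cell and MHC class II genes, which holds Cd207, had no common direction in the main effect. Of 20 listed genes 19 were measured, 8 were higher and 11 lower, and the median main effect was -0.06 against 0.00 over all features. In the component comparisons 18 of 19 were higher with Ing1, with a median of 0.20, and 4 of 19 without it, with a median of -0.37. The medians over all features were -0.0002 and 0.01. The next members by p were the actin bundler Fscn1 with -0.18 ± 0.15, the MHC class II activator Ciita with -0.31 ± 0.30 and the lectin Cd209d with 0.10 ± 0.12 (SE). Their 6 and 6 arrays overlapped.

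Besides Gadd45a and Cd207, Kcnu1 was the named gene of more than 2-fold that separates the arrays. It encodes a pH-sensitive potassium channel known from sperm, and its signal is dim here. It was well above background on 5 of 6 arrays labelled as lacking Gadd45a and on 1 of the other 6, and it entered the tests mainly through the former. The log2 signals ran from 4.2 to 5.12 with a median of 4.27 in the first set and from 2.73 to 3.93 with a median of 3.04 in the second. The main effect was 1.25 ± 0.27 with an adjusted p of 1, close to the same with Ing1 (1.21) and without it (1.30). Kcnu1 lies within 20 Mb of Ing1 on chromosome 8. The size of its main effect rests on how background is taken off: it was 0.20 with normexp background correction and 0.49 in the authors' values.

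The other named genes without overlap differed by small amounts and had an adjusted p of 1. Spsb3, which encodes a substrate receptor of a ubiquitin ligase, had a main effect of 0.17 ± 0.07. Its signal ran from 13.09 to 13.35 in arrays labelled as lacking Gadd45a and from 12.91 to 13.09 in the others. Eogt, a sugar transferase for EGF domains, had 0.18 ± 0.09, and Ssbp1, which binds mitochondrial single-stranded DNA, had 0.12 ± 0.06. Their 6 and 6 arrays were set apart by 0.02 and 0.01 log2 units. H2-T10, a transcribed pseudogene of the MHC class I family in RefSeq, had -0.22 ± 0.07. Its signal ran from 11.62 to 11.80 against 11.81 to 12.13. Near-identical family members could share its probe, so its identity is uncertain.

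**Figure D1:**
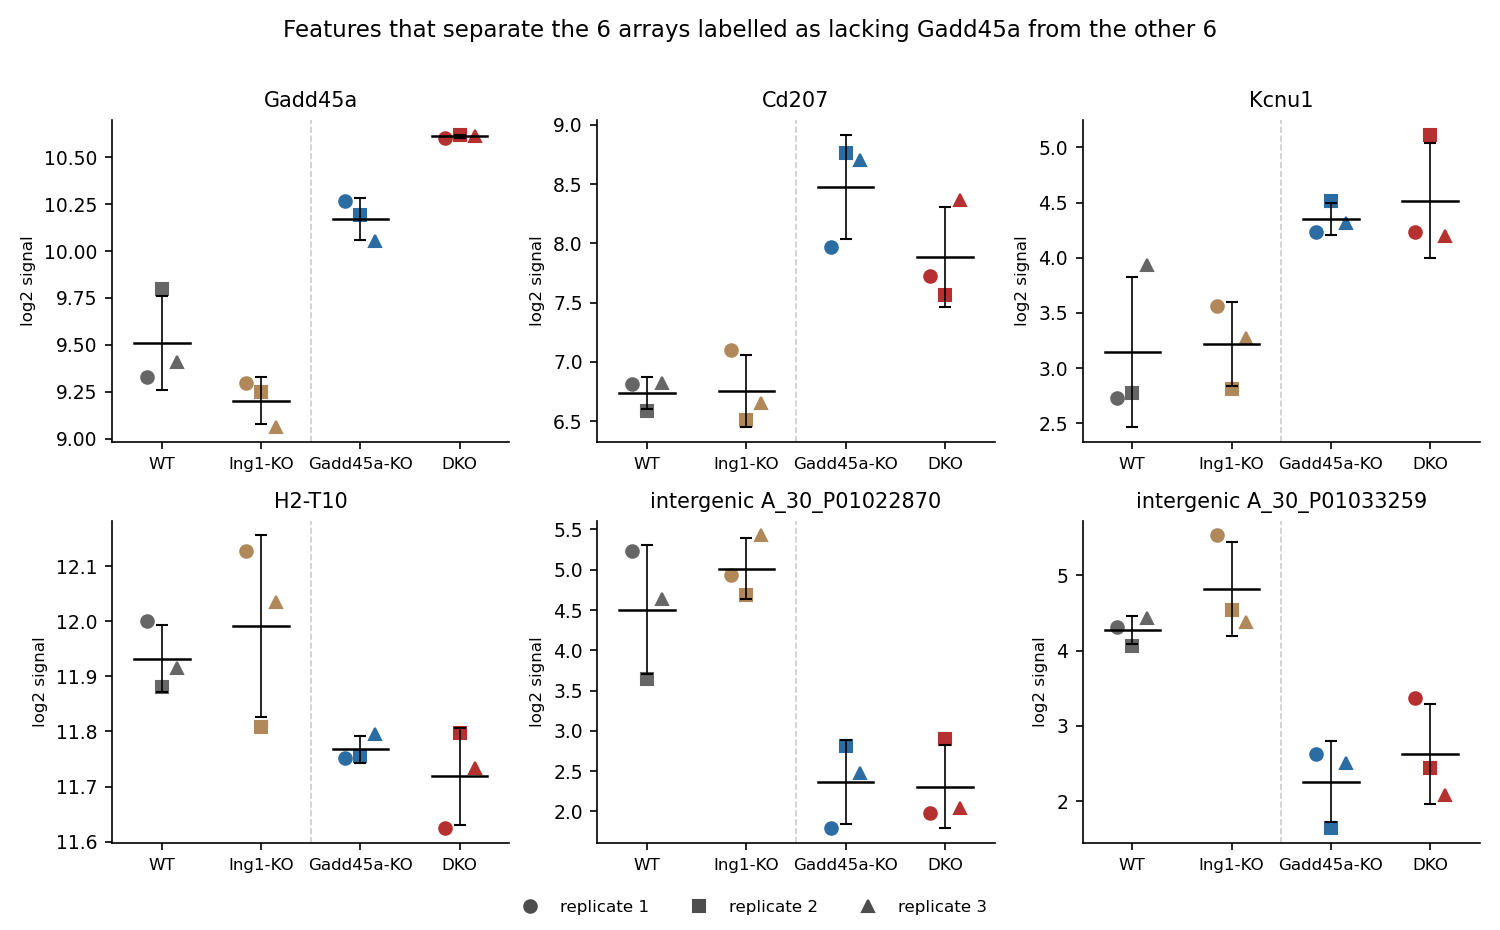
Normalized log2 signal (y axis) of 4 named genes and 2 intergenic probes on each of 12 arrays, by genotype; symbols mark the replicate, which equals the slide, bars the mean and whiskers the SD of 3 arrays. Left of the dashed line are arrays labelled as having Gadd45a, and in each panel the 6 arrays on the right do not overlap the 6 on the left.

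A pair of intergenic probes showed the reverse of the Gadd45a probe. A_30_P01022870 was designed for the region chr6:67016874-67030651 (mm9, forward strand by its name). Its log2 signal was 5.23, 3.65 and 4.63 in WT and 4.93, 4.68 and 5.43 in Ing1-KO, against 1.79, 2.81 and 2.48 in Gadd45a-KO and 1.98, 2.90 and 2.04 in DKO. The groups lay 0.75 apart, and the probe was well above background on 0 of 6 arrays labelled as lacking Gadd45a and on 4 of the other 6. It was 1.73-fold lower in the former when each of those arrays was set to the lowest signal called above background on it. That figure is no lower bound. The other 6 include arrays where the probe was not above background, and normexp background correction gave a smaller difference. The probe entered the tests only through the arrays where it is high. The fitted difference of -2.42 ± 0.33 and its limma adjusted p of 0.0607 set signal against values below background. They support nothing. Over the alternative settings that p ran from 0.0178 to 1, and the difference was -0.31 with normexp background correction.

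The second, A_30_P01033259, covers chr6:67054389-67054857 (mm9, forward strand by its name). It ran from 1.64 to 3.37 in arrays labelled as lacking Gadd45a, where it was above background on 0 of 6, and from 4.07 to 5.53 in the others, where it was above background on 3. It was 1.49-fold lower on the same reckoning, which is no lower bound either. Its fitted difference of -2.10 ± 0.31, with a limma adjusted p of 0.0833, likewise sets signal against values below background and supports nothing. With normexp background correction that difference was -0.29, smaller than the 1.49-fold figure. Both probes and their neighbours in the same regions were picked after their values were seen.

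Not all probes of these regions did the same. In the first region A_30_P01025946 was 1.2-fold lower on the same reckoning and above background on 0 and 2 arrays. Its neighbour A_30_P01024720 was above background on 0 and 1. In the second, A_30_P01022182 was 1.21-fold lower on that reckoning and above background on 0 and 3 arrays. A_30_P01030675 of that region was above background on none of the 12. The reverse-strand probes A_30_P01027254 and A_30_P01027957 of the wider overlapping region chr6:67052066-67119366 (mm9) were above background on all 12 arrays. Their differences were -0.01 and 0.03. The array's names use mm9 and the promoter coordinates above GRCm38.p6, so that positions in one cannot be set against the other.

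The unnamed clone probe A_55_P2187829 completed the features at an adjusted p of 0.0607. Its log2 signal was 4.62, 4.82 and 4.75 in WT and 4.87, 4.81 and 5.52 in Ing1-KO, against 5.79, 5.64 and 5.74 in Gadd45a-KO and 6.06, 6.28 and 6.06 in DKO. Its main effect was 1.03 ± 0.14, and 0.46 with normexp background correction. The probe carries no gene name in the files or the RefSeq table used.

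Genes on chromosome 6 around Gadd45a held a larger share of low p-values than the rest. Of 227 named genes within 20 Mb of Gadd45a, itself left out, 12 had an unadjusted p under 0.05, or 5.29%. On the rest of the chromosome it was 2 of 600 (0.333%), and over all named genes other than the targeted pair 135 of 15952 (0.846%). These genes were chosen after their values were seen, none but Cd207 separates the arrays, and none passed. Of the 12, 2 were higher, Cd207 and the dynein gene Dnah6 with 0.30 ± 0.10, and 10 were lower.

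Inmt, which encodes an indolethylamine methyltransferase, had the most negative main effect among them. Its log2 signal was 11.49, 12.54 and 11.80 in WT and 12.38, 12.28 and 12.18 in Ing1-KO, against 10.62, 11 and 10.13 in Gadd45a-KO and 12.63, 11.26 and 10.66 in DKO. This gave a main effect of -1.06 ± 0.30, and DKO replicate 1 was the highest of all 12 arrays. Prr15, a proline-rich protein gene, ran from 6.24 to 7.09 against 6.66 to 7.57, a main effect of -0.61 ± 0.15. Herc6, which encodes an interferon-induced ligase that attaches ISG15 in mice, ran from 7.15 to 7.92 against 7.32 to 8.56, a main effect of -0.71 ± 0.21. For the 3 genes the 6 and 6 arrays overlapped.

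The other 7 lower genes had main effects between -0.86 and -0.20. They were Ppm1k, the phosphatase that activates branched-chain amino acid breakdown, with -0.30 ± 0.10, the cyclic nucleotide phosphodiesterase Pde1c with -0.64 ± 0.24, Lancl2 with -0.25 ± 0.10 and the RNA-binding protein Igf2bp3 with -0.86 ± 0.36. They also held Gsdme, a pore-forming gasdermin, with -0.40 ± 0.17, Kbtbd2, an adaptor of a ubiquitin ligase, with -0.20 ± 0.09, and the homeobox gene Hoxa5 with -0.40 ± 0.18 (SE). All 12 had the same sign with and without Ing1. Their choice by the p of the main effect, the mean of both comparisons, makes that likely.

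Intergenic probes of the region also held a larger share of low p-values, on the array's own coordinates, but mostly in the other direction. Within 20 Mb of the centre of the region of A_30_P01022870, 14 of 132 probes had an unadjusted p under 0.05 (10.6%), against 2 of 376 on the rest of chromosome 6 and 82 of all 8226 (0.997%). Of the 14, 11 were higher and 3 lower in arrays labelled as lacking Gadd45a, where the named genes had 2 higher and 10 lower. The window was set by that probe, which was picked by its value and counts among the 14, and probes of one region share a transcript or its absence, so that they are not independent. Among them 7 belong to chr6:54591416-54597566 or to chr6:54595084-54595833 inside it (mm9), all above background on 12 arrays, with main effects between 0.30 and 0.38. One, A_30_P01021271 at chr6:57695178-57695277, was above background on 5 of 6 arrays labelled as lacking Gadd45a and on 0 of the others. That probe and all 3 lower ones, A_30_P01022870, A_30_P01022182 and A_30_P01033259, entered the tests only through the side where they are high. Their p-values support nothing, and the share of 10.6% counts them.

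**Figure D2:**
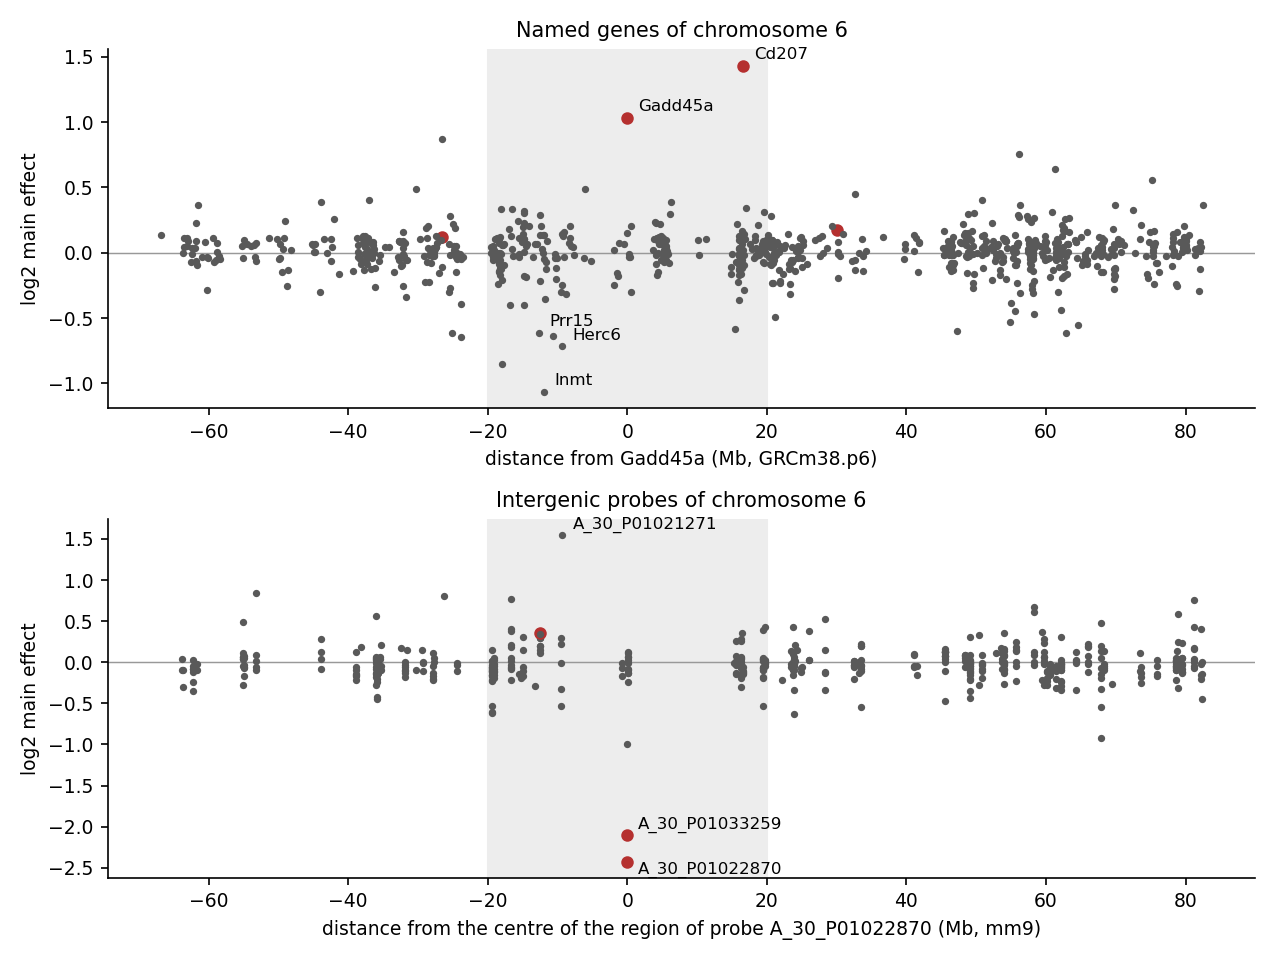
Log2 main effect (y axis) of named genes by distance from Gadd45a (top, Mb on GRCm38.p6) and of intergenic probes by distance from the region of A_30_P01022870 (bottom, Mb on mm9) along chromosome 6. Grey marks 20 Mb to each side and large red points the features whose 6 and 6 arrays do not overlap, among them Cd207 at 1.43 and A_30_P01022870 at -2.42.

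The comparisons that make up the main effect mostly ran in opposite directions. Over 31453 features the log2 differences of Gadd45a-KO against WT and of DKO against Ing1-KO had a Pearson correlation of -0.298 and a Spearman correlation of -0.406, across genes, which are not independent replicates. They share no array, but they share slides, probes and depth of signal. A share of 33.3% of features had one sign in both. Among the 24960 features above background on all 12 arrays the Pearson correlation was -0.448. Over all features it was -0.143 without WT replicate 2, -0.151 without Gadd45a-KO replicate 3, -0.181 without DKO replicate 2 and -0.184 without Ing1-KO replicate 1. It was 0.01, -0.29 and -0.10 when each comparison was taken within 1 slide.

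Features picked in one comparison did not keep their direction in the other. Of 119 at an unadjusted p under 0.01 in Gadd45a-KO against WT, fitted on its own 6 arrays, 24 (20.2%) had the same sign in DKO against Ing1-KO. Of 125 picked in DKO against Ing1-KO, 25 (20%) had the same sign in Gadd45a-KO against WT. The 3 arrays of one genotype did not overlap the 3 of the other for 2557 features (8.13%) in the first and for 2797 (8.89%) in the second. In 48 of these (0.153%) it was so in both comparisons in one direction, and in 180 (0.572%) in opposite directions.

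The difference between the comparisons was itself tested as the interaction, and limma called 0 features at an adjusted p under 0.05. At an unadjusted p under 0.05 it held 1866 (5.93%). As contrasts in the fit of all 12 arrays, Gadd45a-KO against WT called 0, with 739 (2.35%) at the unadjusted level, and DKO against Ing1-KO called 1 (0.00318%), with 1103 (3.51%). That one was the Gadd45a probe, with an adjusted p of 0.00618. Fitted on its own 6 arrays, DKO against Ing1-KO called 0, with 1119 features at the unadjusted level. With 1 array left out of the 12 it called 0 without Ing1-KO replicate 2, without Ing1-KO replicate 3 or without DKO replicate 2, and Gadd45a-KO against WT called 1 without WT replicate 3.

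The 5 genes of smallest interaction p, none of which passed, are given as a description, since that choice fixes that their differences are unlike. The monocyte chemokine gene Ccl12 had 9.80, 9.78 and 9.90 in WT against 10.87, 10.67 and 10.64 in Gadd45a-KO, and 9.30, 9.51 and 9.71 in Ing1-KO against 8.85, 8.83 and 9.28 in DKO. Its difference was 0.90 ± 0.15 with Ing1 and -0.52 ± 0.15 without it, and its main effect 0.19 ± 0.22. Pdgfrl, a receptor-like gene, went the other way, with -0.95 ± 0.25 and 0.99 ± 0.25 and a main effect of 0.02 ± 0.32. The cytoskeletal adaptor Epb41l3 had 0.51 and -0.27, Csmd1, a membrane protein with complement-control domains, 0.74 and -0.86, and the tetraspanin Tspan10 0.47 and -1.14. Their interaction adjusted p lay between 0.633 and 0.728, and their main effects ran from -0.33 for Tspan10 to 0.19 for Ccl12.

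**Figure D3:**
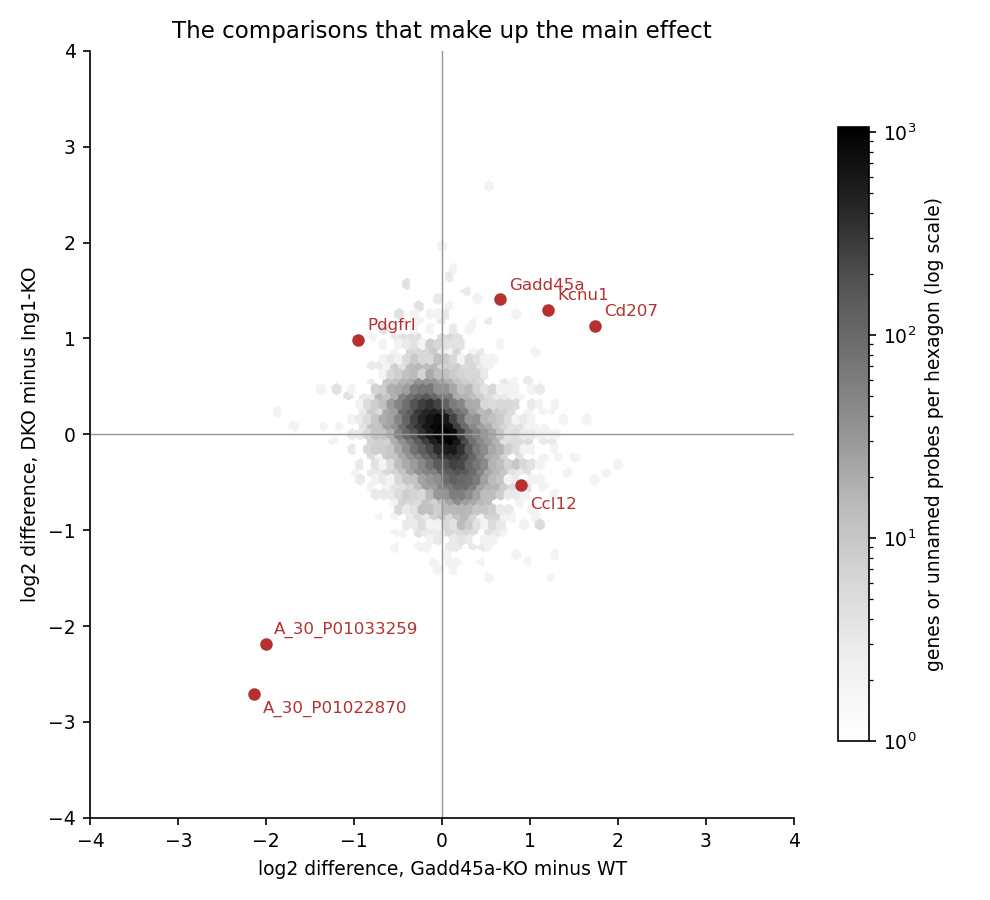
Log2 difference of Gadd45a-KO against WT (x axis) and of DKO against Ing1-KO (y axis) for 31453 features, shaded by how many fall in a hexagon on a log scale. The cloud runs from upper left to lower right, with a Pearson correlation of -0.298. Gadd45a, Cd207, Kcnu1 and both intergenic probes are marked as features whose arrays do not overlap between the Gadd45a labels. That choice alone fixes that they have one sign in both comparisons, so their place away from the cloud is no separate result.

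Of the Gadd45 family and its stress kinases 0 members were called, Gadd45a included, as were 0 of all 31453 features. All 18 members of the list of the Gadd45 family and stress kinases were measured, 11 were higher and 7 lower, and their median was 0.04. Gadd45g, a stress-induced paralog, had 12.58, 12.57 and 12.35 in WT and 12.39, 12.72 and 12.57 in Ing1-KO, against 12.46, 12.28 and 13.09 in Gadd45a-KO and 13.48, 13.35 and 12.77 in DKO. This gave a main effect of 0.37 ± 0.17 with an unadjusted limma p of 0.0419, and the arrays overlapped. Map3k4, the kinase that Gadd45 proteins activate, had 0.15 ± 0.08 and the p38 kinase gene Mapk13 0.39 ± 0.29. The paralog Gadd45b, named here for its family, had -0.13 ± 0.15.

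Genes of the processes that Gadd45a takes part in had medians near 0. Of 24 DNA methylation and demethylation factors 11 were higher and 13 lower, with a median of -0.01. Tet1, which oxidizes methylated cytosine, had -0.18 ± 0.09, the isocitrate dehydrogenase Idh2 0.17 ± 0.14, the methyl-DNA reader Zbtb33 0.09 ± 0.08 and the methyltransferase cofactor Dnmt3l -0.33 ± 0.37. Of 28 excision repair genes 17 were higher, with a median of 0.01 and with Xpa, a damage-binding protein, first by p at 0.10 ± 0.08. Of 22 p53 target genes 21 were measured and 12 were higher, with a median of 0.02; the stress hormone Gdf15 had -0.31 ± 0.20. In these 3 lists 0 members reached an unadjusted p under 0.05, against 0.9% of all features. Of the 40 lists 0 members were called, as were 0 of all 31453 features. Counts of 0 are thus no result about these lists.

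Neutrophil markers had the highest median of the 40 lists. Of 19 listed genes 16 were measured, 15 were higher in arrays labelled as lacking Gadd45a, and the median was 0.77 log2 units, against 0.00 over all features, of which 50% were higher. One member, Retnlg, a resistin-like gene of neutrophils, had an unadjusted p under 0.05 (0.0314). Retnlg had 5.85, 4.19 and 3.85 in WT and 4.87, 4.30 and 4.12 in Ing1-KO, against 7.30, 6.57 and 5.38 in Gadd45a-KO and 4.09, 5.17 and 4.98 in DKO. Its main effect was 1.05 ± 0.43, from 1.78 with Ing1 and 0.31 without it, and the 6 and 6 arrays overlapped.

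The high values came from the Gadd45a-KO arrays. The mean over the neutrophil list, as a deviation from 12 arrays, was 2.29, 1.31 and 0.55 in Gadd45a-KO and -0.96, -0.42 and -0.68 in DKO, against 0.17, -0.11 and -0.74 in WT and 0.16, -0.83 and -0.73 in Ing1-KO. S100a9, a calprotectin subunit, had 14.79, 13.45 and 11.40 in Gadd45a-KO and no value above 11.30 on the other 9 arrays. Its main effect of 1.49 ± 0.72 is the mean of 3.25 and -0.26. The other subunit, S100a8, had 1.43 ± 0.70 and the siderophore binder Lcn2 0.77 ± 0.37. Without Gadd45a-KO replicate 1 the median of the neutrophil markers was 0.30, and over members above background on all 12 arrays it was 0.36. The means of the mesothelial and skeletal muscle lists were also high on that array, and their part in the result was not tested.

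Mast cell markers were higher in all 11 measured members of 13, against 50% of all features, with a median of 0.26. The median of the mast cell markers was 0.14 with normexp background correction, 0.16 without DKO replicate 2 and 0.45 without the 3 arrays highest in muscle transcripts. The Fc receptor chain gene Fcer1a ran from 3.93 to 6.69 with a median of 5.34 in arrays labelled as lacking Gadd45a and from 3.64 to 5.46 with a median of 4.36 in the others. Its main effect was 0.90 ± 0.41 with an unadjusted p of 0.0451. The protease genes Cma1 and Cpa3 both had 0.35, with standard errors of 0.22 and 0.23, and Hdc, which makes histamine, had 0.25 ± 0.16. The mean of the list was 0.36, 0.36 and 0.20 in Gadd45a-KO and -0.36, 0.52 and -0.23 in DKO, so that 1 of 3 DKO arrays stood high.

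The list of mesothelial markers had a median of 0.53 over the 7 of 12 that were measured, 5 of them higher and 2 lower. Msln, Upk3b, Upk1b, Wt1 and Muc16, which define the mesothelium most closely, were not among the genes tested. The measured members thus cannot assign the difference to mesothelium. Krt19 ran from 5.79 to 7.98 with a median of 6.46 in arrays labelled as lacking Gadd45a and from 4.97 to 6.55 with a median of 5.25 in the others. Its main effect was 1.13 ± 0.36 with an unadjusted p of 0.0074. Krt18 had 1.61 ± 0.56 with 0.014, Gpm6a 0.41 ± 0.26 and Krt8, above background on 3 and 1 arrays, 1.06 ± 0.71. Krt19 and Krt18 had one sign with and without Ing1, which their choice by p makes likely, and neither separates the arrays. Without WT replicate 2 the median of the list was 0.28, and over all alternative settings it ran from 0.16 to 0.80. The list mean was high in Gadd45a-KO replicate 1 (1.22) and DKO replicate 2 (0.70). Foxa1, a transcription factor of epithelia chosen after its values were seen, was also highest on those arrays, at 7.51 and 6.39.

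**Figure D4:**
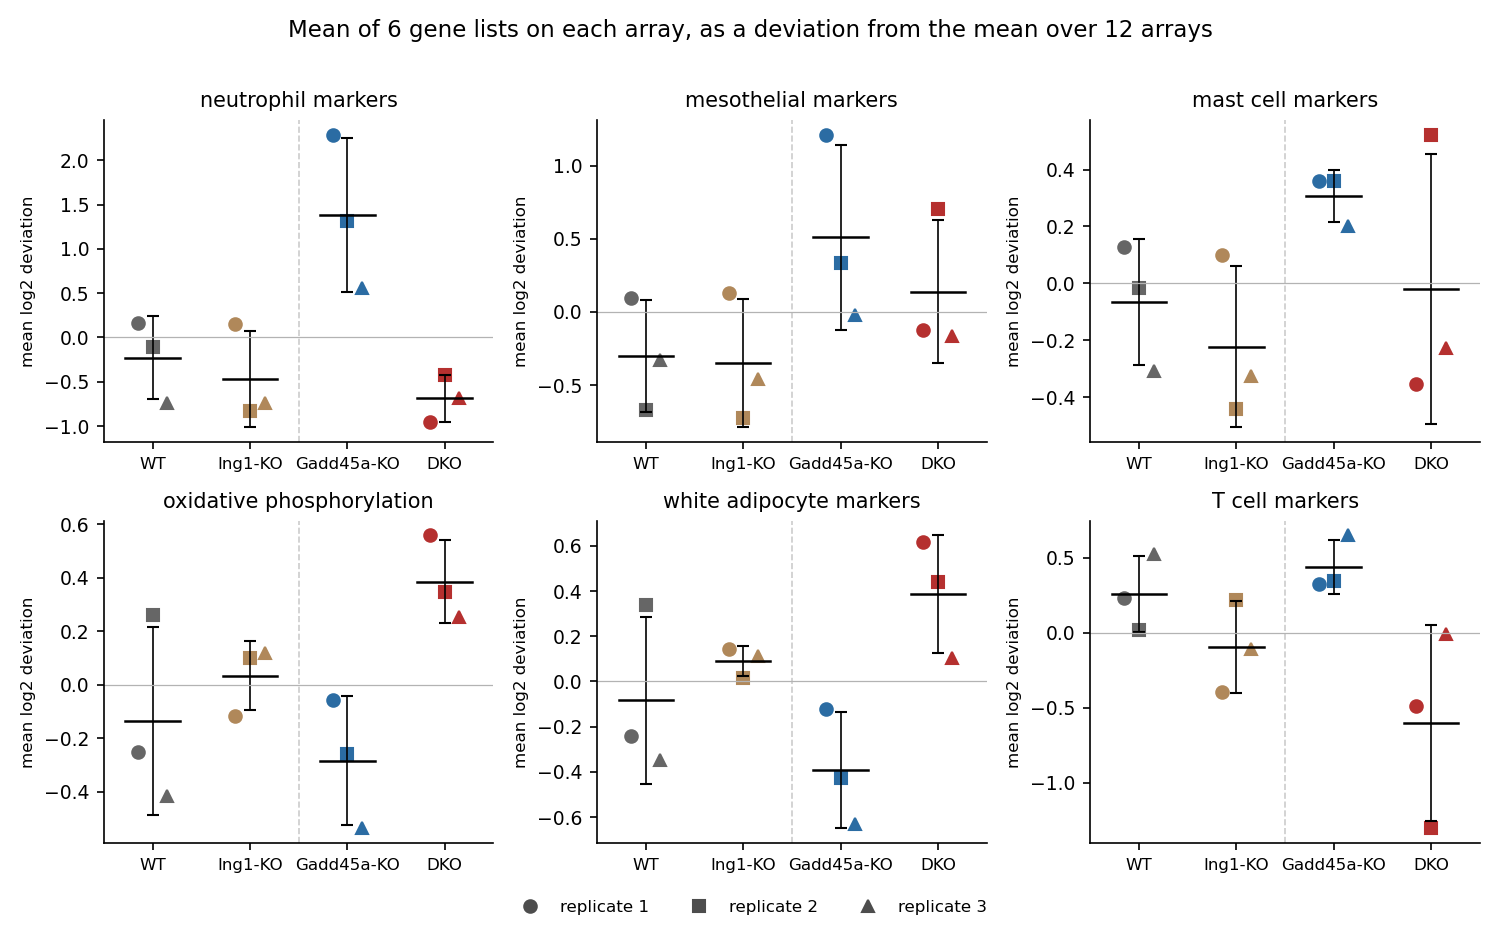
Mean of 6 gene lists on each array, as log2 deviation from the mean over 12 arrays (y axis), by genotype; symbols mark the replicate, bars the mean and whiskers the SD of 3 arrays. Neutrophil markers reach 2.29 in Gadd45a-KO and lie below 0 on all DKO arrays, while adipocyte and respiratory genes are lowest in Gadd45a-KO and highest in DKO.

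Adipocyte genes had main effects near 0 that were the mean of opposite differences. The white adipocyte markers had a median of -0.02, from -0.27 with Ing1 and 0.28 without it, and 24 of 24 members had opposite signs in the 2 comparisons. Over all features only 33.3% had one sign in both, a share that belongs beside each count of opposite signs below. Genes of one list are not independent replicates, so that these counts are a description. The retinol carrier Rbp4 had -0.73 and 0.13, the lipid droplet protein Cidea -0.14 and 0.80, the adipocyte master regulator Pparg -0.17 and 0.48 and the lipid droplet coat Plin1 -0.07 and 0.26. The sign of the small median of the white adipocyte markers turned in 5 settings, and it ran from -0.12 to 0.11 over all of them, the highest without WT replicate 2.

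Lipogenesis and fat burning genes split in the same way. De novo lipogenesis had -0.40 and 0.24 with 20 of 20 opposite, and a main effect median of -0.11. That median was 0.06 both without WT replicate 2 and without Gadd45a-KO replicate 3, and -0.33 without the 3 arrays highest in muscle transcripts. Fatty acid synthase, Fasn, had -0.66 and 0.13 and pyruvate carboxylase, Pcx, -0.41 and 0.08. Fatty acid oxidation had -0.15 and 0.40 with 22 of 22 opposite and a main effect median of 0.10. Its first members by p were the acyl-CoA dehydrogenases Acadvl with 0.25 ± 0.17 and Acadm with 0.20 ± 0.16, the thiolase Acaa2 with 0.25 ± 0.21 and the transport enzyme Cpt1b with 0.56 ± 0.41.

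All 27 respiratory chain genes were higher in the main effect, by 0.03 to 0.19, against 50% of all features. Of the 27, 0 reached an unadjusted p under 0.05, against 0.9% of all features. The median was 0.09, from -0.15 with Ing1 and 0.35 without it, and 26 of 27 had opposite signs. Cox5a, a subunit of cytochrome c oxidase, had 0.19 ± 0.14 and Sdha, the catalytic subunit of succinate dehydrogenase, 0.14 ± 0.11. Brown and beige adipocyte markers had a median of 0.28, with 16 of 20 higher, from -0.11 and 0.56. The lipid droplet protein Plin5 had 0.48 ± 0.22, Fabp3, a fatty acid carrier, 0.99 ± 0.61 and the muscle-type respiratory subunit Cox8b 0.38 ± 0.29. Without the 3 arrays highest in muscle transcripts, an alternative chosen after seeing the data, the medians were -0.05 for respiratory genes, -0.04 for fatty acid oxidation and 0.01 for brown and beige markers.

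Lymphocyte and cell division genes had the mirror image. All 19 T cell markers were lower, where 50% of all features were higher. Their median was -0.16, from 0.18 with Ing1 and -0.52 without it, and 19 of 19 had opposite signs. The adaptor Trat1 had -0.37 ± 0.27, Cd3e and Cd3d, subunits of the T cell receptor complex, -0.19 ± 0.18 and -0.20 ± 0.23, and Foxp3, which marks regulatory T cells, -0.18 ± 0.20. The list mean in DKO was -0.49, -1.30 and -0.01, and the median of the main effect was 0.05 without DKO replicate 2 and -0.05 without Ing1-KO replicate 2. B cell markers had a median of -0.10, with 16 of 17 lower and Cd79a, a chain of the B cell receptor, at -0.31 ± 0.22. Proliferation genes had -0.08, from 0.28 and -0.48, with 20 of 24 lower and the spindle motor Kif11 at -0.26 ± 0.20. Without DKO replicate 2 the medians were 0.08 for B cell markers and 0.06 for proliferation, and without Ing1-KO replicate 2 they were -0.06 and 0.03.

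Interferon-stimulated genes were lower in 22 of 23 measured members, where 50% of all features were higher. Their median was -0.12, from 0.12 with Ing1 and -0.48 without it. The median of the interferon-stimulated genes ran from -0.24 without WT replicate 2 to -0.05 without the 3 arrays highest in muscle transcripts. Ifit3 had 11.82, 11.57 and 12.09 in WT and 12.64, 12.18 and 11.69 in Ing1-KO, against 11.37, 11.59 and 11.33 in Gadd45a-KO and 11.59, 11.82 and 11.64 in DKO. It was the only member with an unadjusted limma p under 0.05 (0.00869), with a main effect of -0.44 ± 0.14. It had one sign in both comparisons, which its choice by p makes likely. Ifit1 had -0.37 ± 0.23, Oasl2 -0.23 ± 0.17 and the ubiquitin-like Isg15 -0.26 ± 0.20. The arrays overlapped for each of them.

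Across the 40 lists the medians of the main effect lay between -0.16 for T cell markers and 0.77 for neutrophil markers. Apart from neutrophil, mesothelial, mast cell and brown and beige markers, all lay between -0.16 and 0.10. Smooth muscle and pericyte markers held 1 member at an unadjusted p under 0.05, the actin-binding protein gene Synpo2 with 0.26 ± 0.10 (0.0254). Macrophage markers had a median of 0.06, with the growth factor receptor Csf1r at 0.19 ± 0.12, and the 7 C/EBP factors 0.10, with Cebpe, a factor of granulocytes, at 0.76 ± 0.37.

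**Figure D5:**
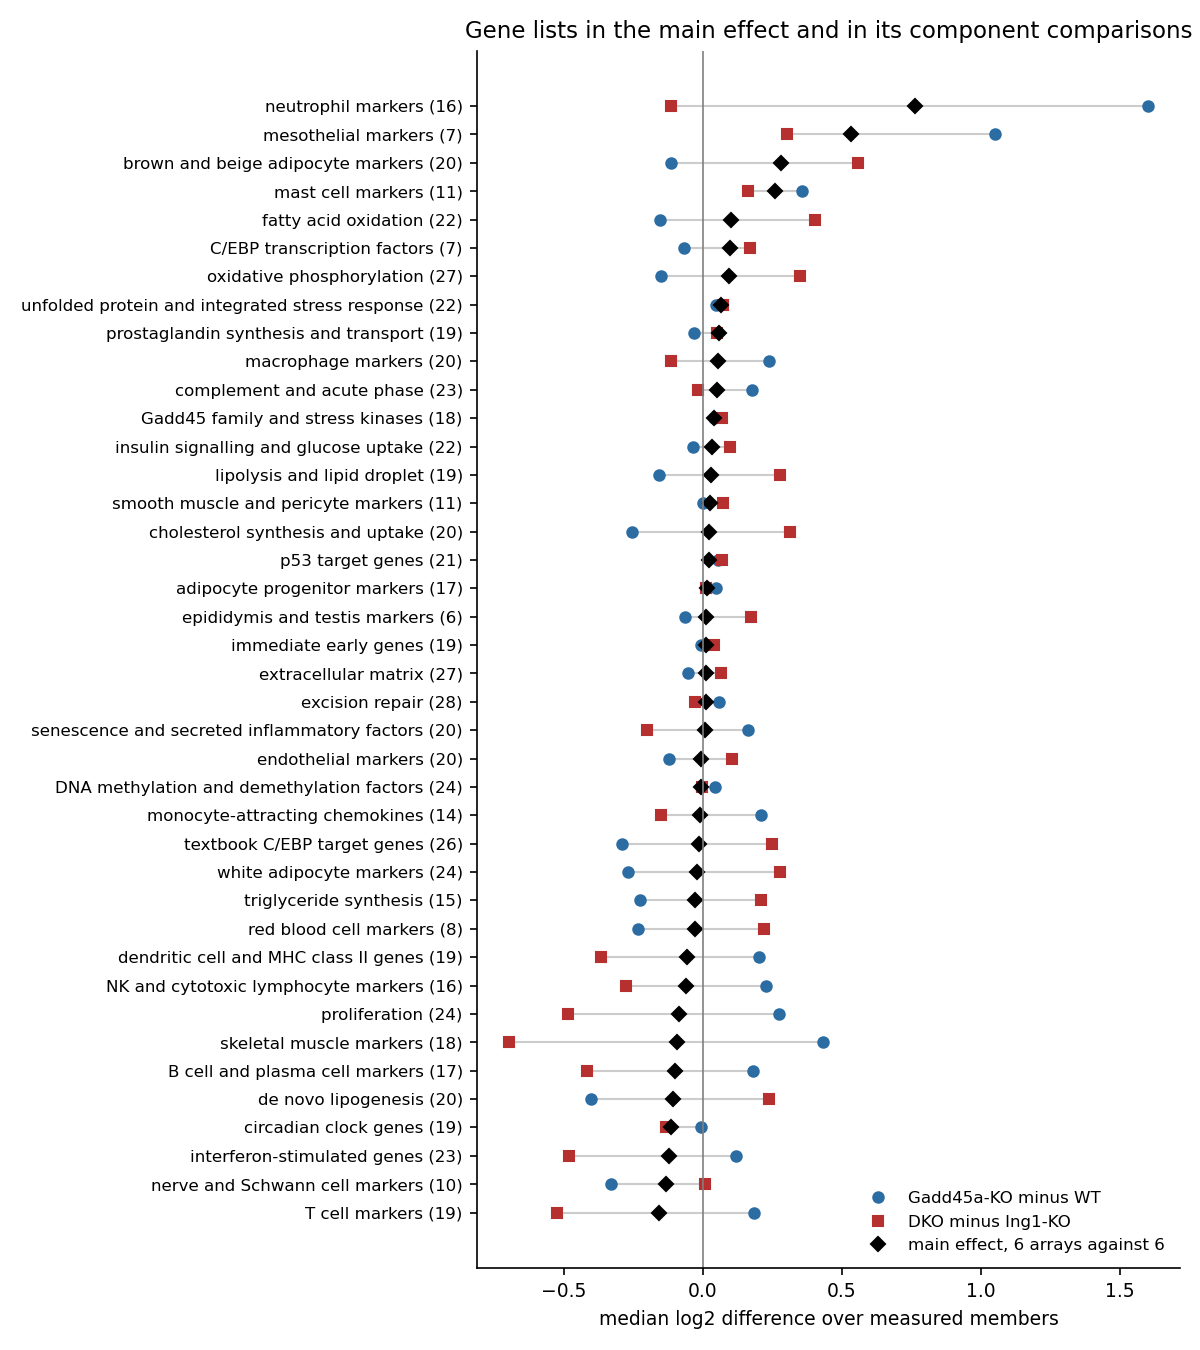
Median log2 difference (x axis) over the measured members of 40 gene lists, with the number measured in brackets, in the main effect (black) and in its component comparisons (blue and red). Lists are ordered by the main effect, from -0.16 for T cell markers to 0.77 for neutrophil markers, and the blue and red points lie on opposite sides of 0 for most lists.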

How the data were processed

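RNA from gonadal white adipose tissue of 4 genotypes was hybridised to 1-colour Agilent arrays, with 3 arrays for each. In the deposited scanner files each spot's intensity is already background-subtracted by Feature Extraction 10.7.3.1 per the file headers. The authors' deposited value table holds log2 values, and limma 3.26.9 appears in the submitters' processing notes. Here log2 intensity was aligned at each array's 75th percentile. A probe entered the tests if 3 or more arrays measured it well above background, and each gene was given by its brightest probe. Each was fitted in limma 3.58.1 (R 4.3.3) with Gadd45a and Ing1 status as terms, robust empirical Bayes and Benjamini-Hochberg adjustment over all 31453 features, called at 0.05. RefSeq named 27509 of 29150 accession probes. The rule for named genes took the targeted genes, named genes whose 6 and 6 arrays do not overlap, the 5 of smallest interaction p, and up to 4 members per list by p. Other genes were chosen after their values were seen. The members and lists were chosen with earlier results of these data known. Alternatives changed the normalization, background correction, filter, probe choice, variance prior, blocks and covariate, used the authors' values, or left out each array. Leaving out the 3 arrays highest in muscle transcripts was added after the data were seen. The additive fit was also run on simulated arrays with independent noise. They held no Ing1 effect, interaction or slide structure, so that the run cannot check the fit for those. The replicate number equals the slide, and 9 of 18 same-numbered pairs deviated together (correlation over 0.1, range -0.276 to 0.424). The median was 0.122 for the same number and -0.0985 for different numbers, and 9 of 12 arrays were best matched by one of their own number. Since not every pair passed, the number was not taken as a pairing.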

Additional observations from a re-analysis of the deposited data

Results flagged for a closer look

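In 102 groups of 6 arrays, 12 held 1 array far from the rest, where chance gives about 1 in 20 groups. Among the features that separate the arrays, DKO replicate 2 stood high for Kcnu1 (5.12, next 4.51), Gadd45a-KO replicate 3 for Eogt (8.94) and DKO replicate 1 for Ssbp1 (13.02). DKO replicate 1 stood low for H2-T10 (11.62). Ing1-KO replicate 1 stood high for A_30_P01033259 (5.53) and Ing1-KO replicate 3 for A_55_P2187829 (5.52). For these features the array far from the rest was on the side away from the other 6 arrays, except A_55_P2187829, where it was the nearest to them.

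The other 6 were list means, as deviations from the mean of 12 arrays. Skeletal muscle markers were at 3.32 on Ing1-KO replicate 1, where the next of its 6 arrays was at -0.45. WT replicate 1 stood high for macrophage markers (0.44), monocyte-attracting chemokines (0.53) and senescence factors (0.32). WT replicate 2 stood high for DNA methylation factors (0.32), and DKO replicate 2 for extracellular matrix (0.5).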

How the results depend on the processing

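The main effect called 0 features in all settings except with no filter (4), with 4 genotype means (1) and on leaving out 1 array (0 to 2, with 2 without WT replicate 2). The Ing1 main effect of 4356 calls went to 25 with the array column as a block and to 5 without the 3 arrays highest in muscle transcripts, and ran from 1663 to 7854 on leaving out 1 array. Gadd45a-KO against WT called 0 to 1 on leaving out 1 array. DKO against Ing1-KO called 0 with the array column as a block, without those 3 arrays and on its own 6 arrays, and 0 to 3 on leaving out 1 array. The interaction called 0 throughout. The cause of these changes was not tested. With the replicate block the main effect called 0, the Ing1 main effect 5180 and DKO against Ing1-KO 1, and the adjusted p of Gadd45a and Cd207 was 0.161.

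The main effect of the Ing1 probe, 0.01, changed sign on leaving out 1 array (-0.0527 to 0.0607), and it was -0.00227 without WT replicate 1, -0.00726 without WT replicate 2, -0.0527 without Gadd45a-KO replicate 3, -0.00814 without Ing1-KO replicate 1 and -0.0443 without DKO replicate 3. The main effect ran from 0.92 to 1.14 for Gadd45a and from 1.05 to 1.71 for Cd207 over all settings. The dim probe A_30_P01022870 ran from -2.65 to -0.31, the latter with normexp. Over 40 lists the median changed sign in 124 of 1040 results under alternatives, among them monocyte-attracting chemokines (15) and endothelial markers (12). The prostaglandin list's median was 0.06, and 0.14 without WT replicate 2. Signal limits the precision: 58.2% to 68.1% of probes were well above background on an array, and differences of dimmer probes rest on how background is subtracted.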

Other observations

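Foxa1, a pioneer transcription factor of epithelia, was chosen for the size of its fitted main effect, after its values were seen. Its log2 signal was 4.41, 2.43 and 4.01 in WT and 1.98, 2.10 and 1.16 in Ing1-KO, against 7.51, 5.63 and 5.05 in Gadd45a-KO and 1.53, 6.39 and 4.74 in DKO. The main effect was 2.46 ± 0.71 (SE) with a limma adjusted p of 1, and it was 2.45 with Ing1 and 2.47 without it. The probe was above background on 5 and 2 arrays and on none of the Ing1-KO arrays, so that the size of these differences rests on values below background, and DKO replicate 1 lay among the arrays labelled as having Gadd45a.

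Near Ing1 on chromosome 8, 6 of 162 named genes had an unadjusted p under 0.05 in the Gadd45a main effect (3.7%), 5 of them higher, against 135 of 15952 named genes in all (0.846%). The region was examined after the values were seen. Sycp1 on chromosome 3 and Top2a on chromosome 11 lie outside that region and were also chosen after their values were seen. Sycp1, which builds the synaptonemal complex of meiosis, was above background on 0 arrays labelled as lacking Gadd45a. It was above background on 3 of the others, all Ing1-KO, at 4.87, 5.87 and 5.27. Sycp1 entered the tests only through those 3 arrays, so that this contrast supports nothing. Top2a, a topoisomerase of dividing cells, was at 14.04 on Ing1-KO replicate 2 and between 7 and 8.73 on the other 11 arrays.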
